A study of Homo sapiens with 3 samples.

Results

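The 11q22 cluster on human chromosome 11 holds 9 matrix metalloproteinase (MMP) genes, and its transcripts were examined in C28/I2, a cell line made from human chondrocytes, the cells of cartilage, with a viral oncogene that keeps them dividing. The members were found by gene symbol in the authors' deposited table of 19215 genes, in which 8 of the 9 had a row. MMP27 had none, so its transcripts were not analysed here. The 3 labelled samples are C28/I2 spheroids, which grow as cell aggregates, kept for 48 h with 0.5% DMSO, a solvent used for drugs. They were set against monolayer culture of the same line, the usual flat growth on plastic. Monolayer culture entered through the fold changes in the authors' deposited table, since the single monolayer libraries were not analysed here, and the sources used here do not give the treatment of those cultures. The labels' protocols also name the chemokine SDF-1 as a treatment. The sample annotation used here lists DMSO and time but no SDF-1 for the 3 spheroid samples. Whether they received SDF-1 is not established here. No label states that the 3 spheroid samples are separate cultures, so their spread, and the p-values that rest on it, may be technical. The line is a single immortalised cell line, which limits it as a model of cartilage.

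MMPs are secreted as inactive precursors, and most are switched on outside the cell when other proteases remove a propeptide. The collagenases (MMP1, MMP8 and MMP13) cut the triple helix of fibrillar collagen. The stromelysins (MMP3 and MMP10) cut proteoglycans and adhesive glycoproteins and activate other precursors, the collagenases among them. In joints, inflammatory cytokines such as interleukin-1 and TNF raise several of these genes in chondrocytes and synovial cells, and MMP13 is the main collagenase that cuts type II collagen of cartilage. The tissue inhibitors of metalloproteinases (TIMPs) block the active enzymes.

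The promoters of the cluster are often described through an AP-1 element, bound by FOS and JUN proteins, close upstream of a TATA box. RefSeq windows of 300 bases, with 250 before the annotated start and 50 after it (GRCh38.p14, minus strand for each), were on hand for 5 members: MMP7, MMP8, MMP10, MMP20 and MMP27. The windows of MMP7 and MMP10 are shown because they hold AP-1-type letters and a TATA box at nearly the same places. The window of MMP8 is shown as a gene that was higher in spheroids with no such AP-1 letters there, and that of MMP20 as a gene listed at 0 that has them. Capitals mark TGANTCA and TATAAA, sought on both strands. The windows lie at chr11:102530698-102530997 (MMP7), chr11:102780579-102780878 (MMP10), chr11:102724905-102725204 (MMP8) and chr11:102625283-102625582 (MMP20), and each is written 5′ to 3′.
MMP7: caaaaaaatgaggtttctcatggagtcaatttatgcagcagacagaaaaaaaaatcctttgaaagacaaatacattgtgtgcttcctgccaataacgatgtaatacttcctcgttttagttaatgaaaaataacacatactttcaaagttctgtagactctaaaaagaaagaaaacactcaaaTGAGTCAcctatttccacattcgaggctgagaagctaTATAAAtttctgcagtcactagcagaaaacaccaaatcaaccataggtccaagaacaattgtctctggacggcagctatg
MMP10: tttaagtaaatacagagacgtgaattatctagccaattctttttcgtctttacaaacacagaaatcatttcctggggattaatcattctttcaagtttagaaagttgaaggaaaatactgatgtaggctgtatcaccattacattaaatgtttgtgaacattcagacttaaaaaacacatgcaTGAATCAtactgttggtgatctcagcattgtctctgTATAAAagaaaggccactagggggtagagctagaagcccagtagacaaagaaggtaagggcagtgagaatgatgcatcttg
MMP8: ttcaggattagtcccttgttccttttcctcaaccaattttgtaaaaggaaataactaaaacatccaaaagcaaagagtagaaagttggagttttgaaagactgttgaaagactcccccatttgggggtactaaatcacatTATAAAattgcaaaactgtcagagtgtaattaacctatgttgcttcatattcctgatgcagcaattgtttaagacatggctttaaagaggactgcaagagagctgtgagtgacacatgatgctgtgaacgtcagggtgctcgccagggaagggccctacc
MMP20: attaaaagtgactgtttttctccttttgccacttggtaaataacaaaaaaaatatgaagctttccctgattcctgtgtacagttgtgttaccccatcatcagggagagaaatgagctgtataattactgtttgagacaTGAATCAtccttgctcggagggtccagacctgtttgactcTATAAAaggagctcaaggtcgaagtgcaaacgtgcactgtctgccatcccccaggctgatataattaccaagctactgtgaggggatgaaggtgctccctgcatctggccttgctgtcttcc

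In MMP7 the AP-1 letters TGAGTCA began 67 bases before the start, and the TATA box TATAAA began 30 bases before it. In MMP10 the variant TGAATCA also began 67 bases before the start, with TATAAA 31 bases before it. MMP20 held TGAATCA 112 bases and TATAAA 72 bases before its start, and MMP8 held TATAAA 110 bases before its start with no TGANTCA in its window. MMP27 had neither. Of 35116 RefSeq windows of this length, 4.95% held TGAGTCA, 7.71% held TGANTCA, which includes TGAGTCA, and 11.5% held TATAAA. The form with any middle base was added after the windows were seen. MMP7 also held the PEA3/ETS letters AGGAAG on the other strand, 169 and 145 bases before its start, as did 33.6% of windows. The HIF letters ACGTG began 233 bases before the start in MMP10, 43 before it in MMP20 and, on the other strand, 11 before it in MMP27, against 21.4% of windows. No window of the 5 held RUNX letters TGTGGT (13.1% of windows) or an NF-kB motif (11.3%). These matches are letters in a window, and nothing here measured binding.

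The cluster was strongly expressed in the spheroids, and most of its transcripts came from the stromelysin gene MMP3. Levels are FPKM, fragment counts scaled to transcript length and to the library's mapped fragments, so they can be compared between genes. MMP3 stood at 2409, 2859 and 2902 FPKM in spheroid replicates 1, 2 and 3, a mean of 2723 ± 273 (SD, n = 3). That made it the gene with rank 18 by mean level among the 19215 in the table. Within the cluster's summed FPKM, MMP3 held 68.3%, 66.9% and 68.4% in the 3 libraries. The collagenase gene MMP1 followed at 586, 753 and 697 FPKM, with a share of 16.9% ± 0.655 (SD, n = 3) of the sum and rank 121 in the table. MMP3 was 4.11, 3.80 and 4.17 times MMP1 in replicates 1, 2 and 3, so the proportion between the 2 genes varied less than either level did.

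MMP12, the macrophage elastase, stood at 255, 307 and 293 FPKM, and MMP13 at 210, 268 and 268 FPKM. Their ranges over the libraries overlapped, with means of 285 ± 27.0 and 249 ± 33.8 FPKM (SD, n = 3). Within each library MMP12 was the higher, at 1.21, 1.14 and 1.09 times MMP13 in replicates 1, 2 and 3. The difference between the 2 genes was not tested. The other stromelysin gene, MMP10, was far below MMP3, at 41.5, 57.6 and 55.3 FPKM. MMP7, or matrilysin, a small MMP without the hemopexin domain, stood at 23.8, 24.0 and 28.3 FPKM. MMP8, the neutrophil collagenase, was near the bottom at 2.25, 3.16 and 2.08 FPKM. MMP20, the enamel protease enamelysin, was listed at 0 in all 3 libraries. Apart from MMP12 and MMP13, no neighbours in this order had overlapping ranges, and the order was the same in each library.

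**Figure D1:**
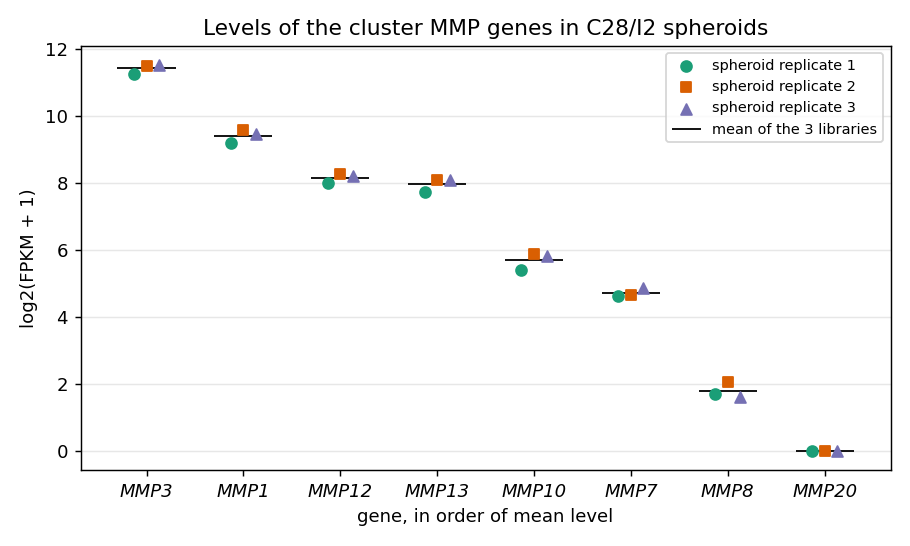
The vertical axis gives log2(FPKM + 1) of each cluster gene in the 3 spheroid libraries (points), with black lines at the mean of these log values and genes ordered by mean level. MMP3 stands above all others, MMP12 and MMP13 overlap, and MMP20 is listed at 0.

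The 3 spheroid libraries were alike, with summed FPKM from 571705 to 623496, 12383 to 12416 genes at 1 FPKM or more, and median-ratio scale factors from 0.995 to 1.01. The read totals behind them are not given, so no counting interval is attached. Among the cluster genes, replicate 1 was the lowest library for 6 of the 7 members at 1 FPKM or more, against 34.1% of all 12410 genes at that level. MMP8 was the exception, lowest in replicate 3. On the log2(FPKM + 1) scale the 7 members deviated from the mean of the 3 libraries by a median of -0.17 in replicate 1, 0.12 in replicate 2 and 0.10 in replicate 3. For all genes at 1 FPKM or more these medians were 0.005, -0.007 and 0.006. Of the lists described further on, the AP-1 factors deviated by -0.14, 0.02 and 0.09 and the 2 cartilage markers at this level by -0.14, 0.09 and 0.05. Those 2 markers differed: SOX9 was nearly level at 6.66, 6.66 and 6.81 FPKM in replicates 1, 2 and 3. COL11A2, at 1.55, 2.53 and 2.26 FPKM, was the one low in replicate 1. The inducing cytokines and receptors, at 0.009, 0.05 and -0.04, the other transcription factors, at -0.008, 0.04 and -0.03, and the activators, at -0.03, 0.05 and -0.03, had no such low median in replicate 1. The coefficient of variation ran from 9.50% for MMP12 to 23.3% for MMP8, with a median of 12.5%, against 8.37% for all genes at 1 FPKM or more. What sets replicate 1 apart was not tested.

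**Figure D2:**
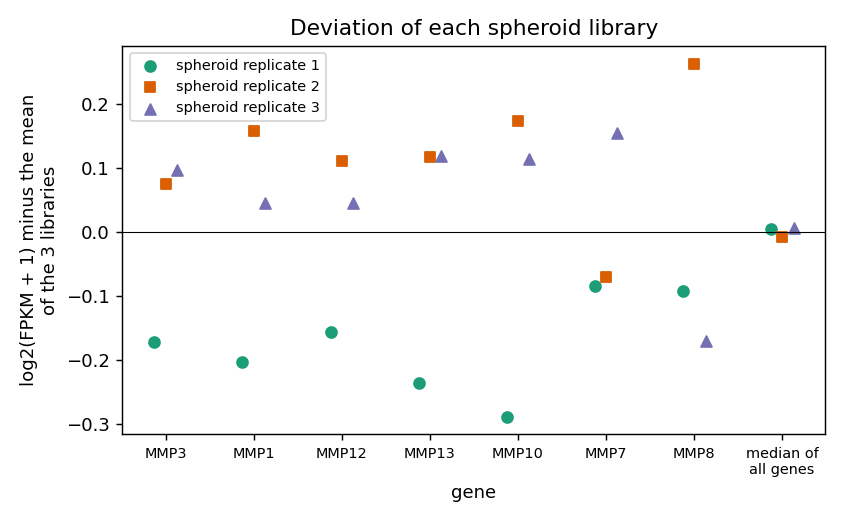
Points give log2(FPKM + 1) in each spheroid library minus the mean of the 3 libraries, for the 7 cluster genes at 1 FPKM or more and, at the right, as the median of all genes at that level. Replicate 1 lies below 0 for all 7, while the medians of all genes lie near 0.

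Against monolayer culture, 7 of the 8 cluster genes with a row were higher in spheroids and none was lower. A call needed a DESeq2 adjusted p under 0.05 and a log2 fold change of 1 or more in size. By this rule 11.5% of 18467 genes tested were called higher and 9.34% lower, and 12.7% of the 12410 with a spheroid mean of 1 FPKM or more were higher. By the authors' deposited table the median log2 fold change of the 8 was 4.44, against 0.04 for all genes tested, and it is the same for any value of MMP20 below that of MMP12. Of the 8, 6 had a log2 fold change of at least 2 and 5 of at least 4 per the authors' deposited table, where 5.05% and 1.49% of genes tested were called higher with folds of that size. The members were chosen with results of these data known. In bulk cultures, a change in the number of cells that express a gene and a change in its RNA per cell cannot be told apart.

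All 3 collagenase genes rose. MMP13 had a log2 fold change of 5.50 per the authors' deposited table, or 45.4 times the level in monolayer, and MMP1 one of 4.75, or 27.0 times. For both, the DESeq2 adjusted p of the authors' deposited table is listed as 0, as it is for 7 genes in all. MMP8 had a log2 fold change of 4.98 per the authors' deposited table, or 31.5 times, with a DESeq2 adjusted p of 1.32e-18. The log2 fold changes of the 3 thus lay between 4.75 and 5.50 (the authors' deposited table), while their levels differed widely: MMP1 was 261, 238 and 335 times MMP8 in spheroid replicates 1, 2 and 3. MMP8 averaged only 2.50 FPKM in spheroids, so its fold rests on a monolayer level near 0. The likeness of the 3 folds was not tested.

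Both stromelysin genes rose. MMP10 had the largest fold of the cluster, a log2 fold change of 6.61 per the authors' deposited table, or 97.7 times the level in monolayer (DESeq2 adjusted p = 5.81e-114). MMP3 had a log2 fold change of 2.46 per the authors' deposited table, or 5.49 times (DESeq2 adjusted p = 2.13e-153). In the spheroids MMP3 was still 58.0, 49.6 and 52.5 times MMP10 in replicates 1, 2 and 3. By size of fold, MMP10 had rank 32 and MMP3 rank 972 among the genes tested. MMP3 and MMP10 are close paralogs, and the division of reads that fit both genes is not stated.

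MMP12 had a log2 fold change of 4.13 per the authors' deposited table, or 17.5 times the level in monolayer, with a DESeq2 adjusted p listed as 0. MMP7 had the smallest fold among the called members, a log2 fold change of 1.66 per the authors' deposited table, or 3.16 times (DESeq2 adjusted p = 9.92e-23). MMP20 was not called (DESeq2 adjusted p = 0.854 per the authors' deposited table), and no fold is given for a gene listed at 0 in every spheroid library. The authors' deposited table holds no standard errors, so differences between the members' folds were not tested. Annotated genes overlap some members: the transcribed pseudogene WTAPP1 overlaps MMP1 and MMP3, and the long noncoding RNA LOC124902741 overlaps MMP12. Neither had a row in the table, and since the strandedness of the libraries is not given, reads from these overlaps cannot be told apart from those of the MMP genes.

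**Figure D3:**
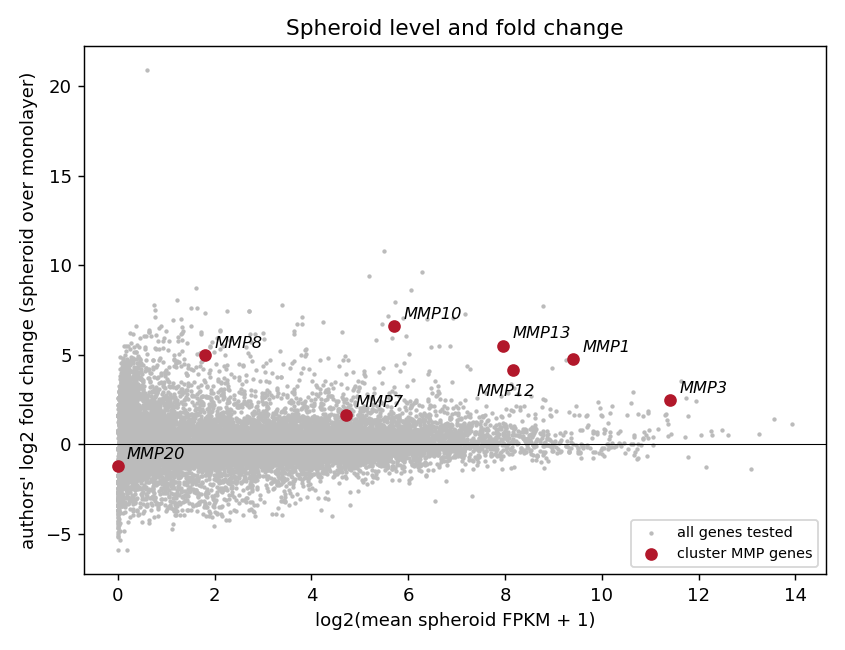
Each point is a gene tested by the authors, with log2(mean spheroid FPKM + 1) on the horizontal axis and the log2 fold change of spheroid over monolayer per the authors' deposited table on the vertical axis. The cluster genes (red) lie above 0 over a wide range of levels, from MMP8 at 2.50 FPKM to MMP3 at 2723 FPKM, apart from MMP20, which is listed at 0 in the spheroids.

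Along the chromosome, the higher genes were contiguous from MMP8 through MMP10, MMP1, MMP3 and MMP12 to MMP13. MMP7 lies at the other end, beyond MMP20 and MMP27. No other protein-coding gene lies between MMP7 and MMP13 in the RefSeq gene table. Of the 10 protein-coding genes on either side, 18 of 20 were tested, and 3 of them were higher and none lower. Over all genes tested, 11.5% were higher and 9.34% lower, and the difference of the neighbours from these shares was not tested. The nearest genes were not called: TMEM123, encoding a transmembrane protein next to MMP7, had a log2 fold change of 0.83 per the authors' deposited table, and DCUN1D5, a factor of cullin neddylation next to MMP13, one of -0.44. YAP1, the Hippo pathway coactivator, stood at 0.30 per the authors' deposited table.

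The neighbours that rose were BIRC3, encoding an inhibitor of apoptosis and regulator of NF-kB signalling, at a log2 fold change of 2.37 per the authors' deposited table, and the inflammatory caspase genes CASP1 at 2.11 and CASP4 at 2.08. BIRC3 stood at 3.38, 3.90 and 4.27 FPKM in spheroid replicates 1, 2 and 3, CASP4 at 62.9, 68.8 and 66.3 FPKM, and CASP1 at 25.3, 26.6 and 26.0 FPKM. BIRC2, which lies beside BIRC3 and encodes a related inhibitor, was not called, at a log2 fold change of -0.20 per the authors' deposited table with 47.1 ± 1.63 FPKM in spheroids (SD, n = 3). The median log2 fold change of the tested neighbours per the authors' deposited table was 0.69.

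**Figure D4:**
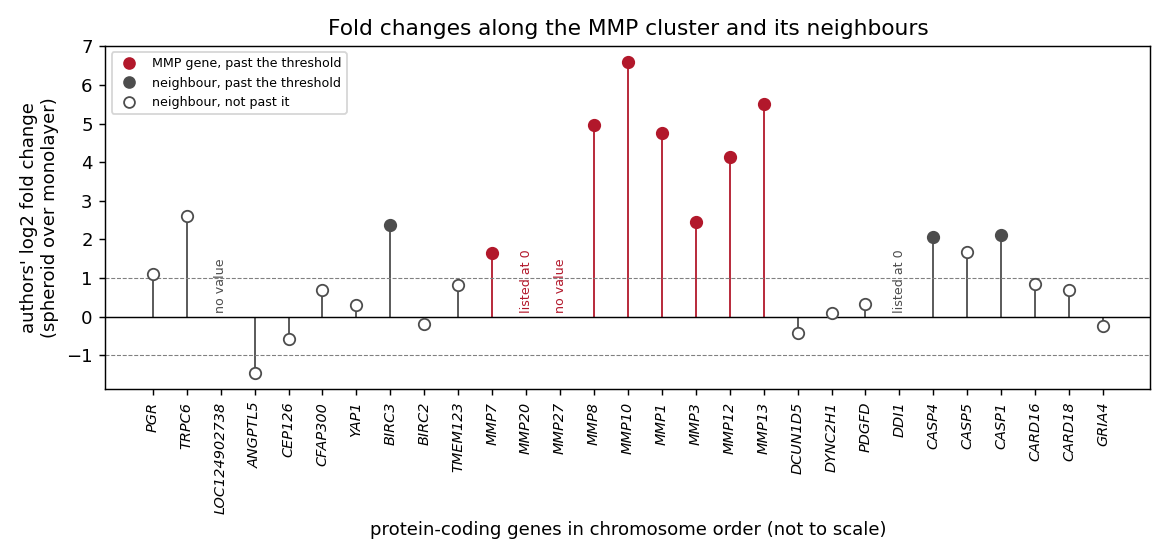
The vertical axis gives the log2 fold change of spheroid over monolayer per the authors' deposited table, for the 9 cluster genes (red) and the 10 protein-coding genes on either side (grey) in chromosome order, not to scale. Filled points passed the threshold, dashed lines mark a log2 fold change of 1 in either direction, and genes listed at 0 or with no row carry no point. The MMP8 to MMP13 stretch stands above DCUN1D5, the gene next to MMP13. On the MMP8 side the next genes, MMP27 and MMP20, carry no point, so no such comparison can be made there.

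The MMP genes outside the cluster were mixed: of 13 tested, 4 were higher and 2 lower, with a median log2 fold change of 0.27 per the authors' deposited table. Beside the counts of this list and those that follow, 11.5% of all genes tested were higher and 9.34% lower. MMP9, a gelatinase, stood at a log2 fold change of 5.47 per the authors' deposited table, and MMP14, a membrane-anchored MMP that activates pro-MMP2 and pro-MMP13, at 2.35. MMP28 and MMP19 were the other 2 higher genes, at 2.12 and 1.07 per the authors' deposited table, MMP28 at 0.84, 0.48 and 0.85 FPKM in spheroid replicates 1, 2 and 3. MMP23B and MMP24 were lower, at -1.47 and -1.18 per the authors' deposited table, both also at under 1 FPKM on average in spheroids. With genes at 1 FPKM or more, 3 were higher and 0 lower. MMP2, the other gelatinase, was not called at a log2 fold change of 0.81 per the authors' deposited table, though it averaged 1066 ± 36.5 FPKM in spheroids (SD, n = 3). The difference between the cluster and the other MMP genes was not tested.

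Of 11 inhibitors, 3 were higher and none lower, with a median log2 fold change of 0.57 per the authors' deposited table. TIMP1, the most abundant of them, stood at 2251, 2631 and 2959 FPKM in spheroid replicates 1, 2 and 3, with a log2 fold change of 1.34 per the authors' deposited table. Its range overlapped that of MMP3, which was 1.07, 1.09 and 0.981 times TIMP1 in the 3 libraries. TIMP2, at 234 ± 14.4 FPKM (SD, n = 3), was not called, with a log2 fold change of 0.57 per the authors' deposited table. The other inhibitors that rose act on serine proteases of the plasminogen system: SERPINB2 at 3.14 and SERPINE2 at 1.64 per the authors' deposited table.

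Of 17 genes whose products can activate pro-MMPs, 7 were higher and none lower, with a median log2 fold change of 1.28 per the authors' deposited table. MMP14 averaged 965 ± 110 FPKM in spheroids (SD, n = 3). The cysteine protease genes CTSL and CTSB rose by log2 fold changes of 1.75 and 1.60 per the authors' deposited table, with 1157 ± 107 FPKM in spheroids for CTSL (SD, n = 3). Plasmin is a classic activator of the stromelysins and collagenases. Its precursor gene PLG was listed at 0, 0.02 and 0 FPKM in spheroid replicates 1, 2 and 3, and PLAU, encoding urokinase, at 0.18, 0.35 and 0.19 FPKM. The urokinase receptor gene PLAUR rose, at a log2 fold change of 1.28 per the authors' deposited table. The serine protease genes TMPRSS2 and ST14, at 2.94 ± 0.145 and 1.51 ± 0.167 FPKM in spheroids (SD, n = 3), rose by 5.17 and 3.10 on a log2 scale per the authors' deposited table.

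Among 22 inducing cytokines and their receptors, 7 were higher, 1 lower and 14 not called, with a median log2 fold change of 0.78 per the authors' deposited table. IL1B, encoding interleukin-1 beta, stood at 32.5, 43.3 and 41.6 FPKM in spheroid replicates 1, 2 and 3, and IL6 at 18.9, 28.1 and 27.8 FPKM, so both were lowest in replicate 1. Their log2 fold changes were 5.81 and 4.91 per the authors' deposited table. TNF stood at 3.54, 4.35 and 2.80 FPKM in the same libraries, with a log2 fold change of 4.35 per the authors' deposited table. CXCR4, the receptor of the chemokine SDF-1, named as a treatment in the labels' protocols, had a log2 fold change of 5.02 per the authors' deposited table. IL18 was the gene that fell, at -4.83 per the authors' deposited table, with at most 0.07 FPKM in any spheroid library. IL17A and OSM, further inducers of collagenases, were at or below 0.04 FPKM in each spheroid library.

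Of 14 AP-1 and related factors, 8 were higher, 1 lower and 5 not called, with a median log2 fold change of 2.10 per the authors' deposited table. Over all genes tested, 11.5% were higher and 9.34% lower. BATF2, ATF3 and MAF, factors with the same kind of basic leucine zipper, stood at 3.95, 3.58 and 2.53 per the authors' deposited table. JUNB averaged 143 FPKM in spheroids with a log2 fold change of 2.48 per the authors' deposited table. The FOS and JUN genes themselves were not called, at 0.23 and 0.31 per the authors' deposited table, and FOSL1, encoding a FOS-related protein, fell by 1.04 on the log2 scale there. Of the same families, FOSL2 and JUND were not called, at 0.68 and 0.83 there. FOSB was higher at 2.14, with 0.827 FPKM on average in spheroids. FOS was uneven in the spheroids, at 8.88, 9.26 and 17.3 FPKM in replicates 1, 2 and 3.

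Of 28 other transcription factors linked to MMP promoters, 11 were higher and none lower, with a median log2 fold change of 0.91 per the authors' deposited table. RELB, a subunit of NF-kB, stood at 2.63, the leucine zipper factor CEBPD at 2.50, the epithelial ETS factor ELF3 at 2.50 and ETV1, also of the ETS family, at 1.65 per the authors' deposited table. RUNX2, a regulator of MMP13 in hypertrophic cartilage, was not called at 0.45 per the authors' deposited table, with 11.4 ± 0.663 FPKM in spheroids (SD, n = 3). HIF1A was not called at 0.93 per the authors' deposited table, with 287 ± 46.7 FPKM in spheroids (SD, n = 3).

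The substrates did not move one way: of 28 genes, 7 were higher, 6 lower and 15 not called, with a median log2 fold change of -0.14 per the authors' deposited table. FN1, encoding fibronectin, a substrate of the stromelysins, stood at 2.57 and IGFBP3 at 2.50 per the authors' deposited table. ACAN, the aggrecan core protein cut by MMP3, fell by 2.16 on a log2 scale per the authors' deposited table, and COL4A2, a basement membrane collagen, by 1.48. COL1A2, at 500 ± 15.3 FPKM in spheroids (SD, n = 3), was not called at 0.14 per the authors' deposited table. Of 12 genes for the binding and uptake of collagenases and collagen, 7 were higher and none lower, with a median log2 fold change of 1.13 per the authors' deposited table. ITGA2, a collagen-binding integrin chain that also binds pro-MMP1, was at 2.95 and SDC4, a cell-surface proteoglycan, at 1.86 per the authors' deposited table.

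**Figure D5:**
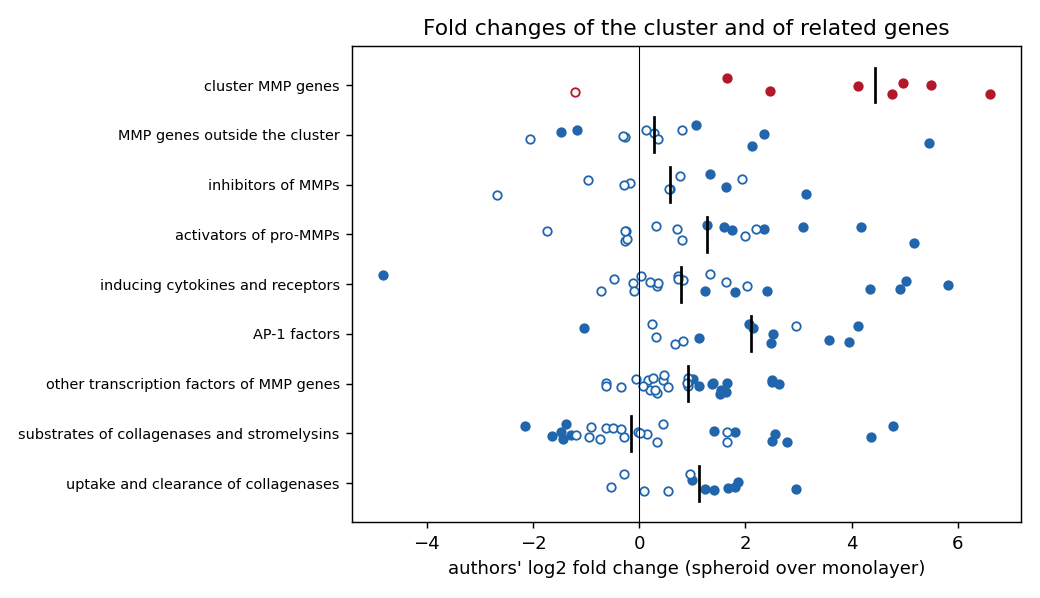
Each point is the log2 fold change of one gene, spheroid over monolayer, per the authors' deposited table, for the cluster genes (red) and 8 lists of related genes (blue). Filled points passed the threshold and open points did not, and black bars are list medians, from 4.44 for the cluster to -0.14 for the substrates; the open red point is MMP20, listed at 0 in the spheroids.

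The genes most like MMP1 and MMP13 were sought over the 3 spheroid libraries and the authors' comparison, by the distance in log2(mean FPKM + 1) and log2 fold change. CCL7, a monocyte chemoattractant, was nearest to MMP1 at a distance of 0.15, with 542, 653 and 650 FPKM in spheroid replicates 1, 2 and 3 and a log2 fold change of 4.72 per the authors' deposited table. NDRG1, a stress-responsive gene, followed at 0.67, and MMP12 came next. The nearest to MMP13 lay further off: MMP9 at 1.10, SLPI, a secreted inhibitor of leukocyte proteases, at 1.33, and CA9, a carbonic anhydrase gene, at 1.38.

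Most defining markers of cartilage were low in the spheroids. COL2A1, the main collagen of cartilage, was at 0.03, 0.01 and 0.01 FPKM in replicates 1, 2 and 3, and of 10 cartilage markers, 2 were higher, 2 lower and 2 reached 1 FPKM, SOX9 at 6.71 ± 0.0866 (SD, n = 3) and COL11A2 at 2.11 ± 0.506. In the hypertrophic list, 1 of 6 markers was higher, IBSP, with none lower, while COL10A1 stayed at or below 0.09 FPKM in each library. The summed level was 9.69 to 10.6 FPKM for the cartilage list and 14.9 to 15.9 FPKM for the hypertrophic list. MMP12 is known from macrophages and MMP8 from neutrophils. Of 10 macrophage markers, 4 were higher and none lower, and their summed level ranged from 721 to 806 FPKM, of which CD68 made up 660 to 742. ADGRE1 averaged 54.1 FPKM in spheroids with a log2 fold change of 1.27 per the authors' deposited table, CD163 0.300 FPKM with 2.58 and ITGAM 0.350 FPKM with 1.86, while CSF1R, at 6.27 FPKM, was not called at 0.94. The pan-leukocyte gene PTPRC was at 0, 0.01 and 0.06 FPKM and TYROBP at 0 in each spheroid library. Of 9 neutrophil markers, 5 were higher and none lower, with a summed level from 5.53 to 8.07 FPKM. PRTN3, FCGR3B, S100A12 and CSF3R had log2 fold changes of 6.32, 5.29, 5.02 and 3.65 per the authors' deposited table, at spheroid means of 1.52, 1.05, 2.09 and 1.02 FPKM, and CXCR2 one of 2.69 at 0.343 FPKM. MPO, the granule peroxidase, was not called and stood at 0.04, 0.08 and 0.11 FPKM.

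Synovial fibroblast markers included 4 higher and 1 lower of 8, with summed levels from 523 to 570 FPKM, mostly COL1A1. COL1A1 was not called, at a log2 fold change of -0.95 per the authors' deposited table. THY1 was the lower marker, at -2.46 there, with 0.03 FPKM in each spheroid library. The 4 higher were PDPN at 38.2 ± 2.63 FPKM, PDGFRA at 32.9 ± 5.79, LUM at 1.89 ± 0.127 and DCN at 1.48 ± 0.130 in spheroids (SD, n = 3), with log2 fold changes of 3.14, 3.42, 2.78 and 4.36 per the authors' deposited table. PRG4, of the joint lining, was at 0.14, 0.14 and 0.09 FPKM. Of 6 epithelial markers none was called, with sums from 65.9 to 70.3 FPKM and CDH1 at or below 0.03 FPKM. Most of these sums came from KRT18 and KRT8, at 46.4 and 19.4 FPKM on average. Their log2 fold changes were -0.47 and -0.70 per the authors' deposited table. Of 4 ameloblast markers, from the cells that make MMP20 in teeth, none was called, with sums from 2.76 to 4.53 FPKM and ENAM at or below 0.03 FPKM. AMELX made up most of these sums, at 3.41 FPKM on average, with a log2 fold change of -0.05 per the authors' deposited table. Of 5 endothelial markers, 2 were higher, with sums from 1.70 to 1.84 FPKM and CDH5 at or below 0.02 FPKM. The 2 higher were PECAM1 and KDR, at 0.657 and 0.603 FPKM on average, with log2 fold changes of 4.68 and 2.71 per the authors' deposited table. The part of any of these cell types in the cluster's values was not tested.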

How the data were processed

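Trizol was used for RNA and a sequencing provider's own kit for the libraries, per the labels' protocols. Tools named in the submitters' processing notes are Bowtie2 2.2.5, RSEM 1.2.12, DESeq2 1.4.5 and GRCh38.p13, without the step each served. The authors deposited FPKM values to 2 decimals for each library, and a log2 fold change, p-value and adjusted p-value (q-value) from DESeq2, per the file headers. The fold change is spheroid over monolayer, since it was negative for 356 of 358 genes that all 3 spheroid libraries list at 0. The q-values matched p-values adjusted by Benjamini-Hochberg over 18467 genes to within 1.3e-15. Another 3 per-library columns match no listed sample and were used in no step, so no test between the culture forms was run here.

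Means and SD are over 3 libraries, and log values use a pseudocount of 1. Depth is unknown, since FPKM keeps no read totals. The calling code and the motif search were tested on simulated data. The members, the 8 lists of related genes, the 8 marker lists and the tests were chosen with earlier results of these data known. The genes named are the members, up to 4 per list and direction with the largest fold past the threshold (those higher at 1 FPKM or more), up to 2 abundant genes per list not past it, the neighbours and the nearest genes; others, such as MMP28, PLG, PLAU, PLAUR, CTSB, FOS, JUNB, RUNX2, IL17A, OSM and some markers, were chosen after their values were seen, and not each gene of the rule is reported here. Gene order, overlaps and promoters come from RefSeq (GRCh38.p14). Python 3.11.15, NumPy 2.4.6, pandas 2.3.3 and matplotlib 3.10.9 were used.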

Additional observations from a re-analysis of the deposited data

How the results depend on the processing

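The count of 7 cluster genes higher and 0 lower was the same at an adjusted p under 0.01, with no minimum fold change, with genes at 1 FPKM or more and with fold changes centred on the median. It was 6 higher and 0 lower at a minimum log2 fold change of 2, where MMP7 drops out. These are DESeq2 calls of the authors, and no cluster gene was lower at an adjusted or unadjusted p under 0.05 without a minimum fold. Spheroid levels moved by less than 1 SD under median-ratio scaling, geometric means with a pseudocount of 1 or 0.1, and leaving out each replicate; shares of the cluster sum were recomputed leaving out each replicate only, and moved by less than 1 SD. Across the 8 lists of related genes, 53 genes were higher and 10 lower, where 11.5% and 9.34% of all genes tested were. A minimum log2 fold change of 2 gave 28 and 2, where 5.05% of all genes tested were higher. Genes at 1 FPKM or more gave 47 and 4, where 12.7% of all genes at that level were higher. No minimum gave 78 and 23, and no share over all genes was computed for that setting. Some genes are in more than 1 list, and the difference from these shares was not tested. No paired analysis was possible because the labels list samples of a single group. Depth is unknown, and values near 0 are coarse at 2 decimals.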
